A study of Mus musculus with 14 samples.

Results

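The 9 mast cell genes described here were Cpa3, Cma1, Mcpt4, Tpsb2, Tpsab1, Kit, Hdc, Ms4a2 and Fcer1a, out of 18193 genes with a named probe set on the array. A probe set is a group of short oligonucleotides read together as a single signal, and it can match several transcripts of a gene or of related genes. Each gene was represented by its brightest probe set, chosen by the highest mean signal over the 14 arrays. That mean ran from 30.7 units for Hdc to 225.0 for Kit, and it includes the arrays compared below. The genes themselves were selected with earlier results of these data known.

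Mast cells are tissue-resident immune cells that mature outside the blood under the receptor tyrosine kinase Kit and its ligand. Their granules store chymases, tryptases and carboxypeptidase A3 bound to the proteoglycan serglycin, together with histamine. Antigen bound by IgE on the high-affinity Fc epsilon receptor makes them release this content. In connective tissue and muscle they sit along vessels and nerves, and they are also found around many solid tumours.

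RNA of 14 mouse samples had been hybridised to Affymetrix arrays. Of these, 12, numbered here in accession order, were osteosarcomas, bone tumours whose cells deposit bone matrix, from p53+/- mice, in which 1 copy of this tumour suppressor gene is lost. A tumour labelled rhabdomyosarcoma, a cancer of the skeletal muscle lineage, came from mice of the same genotype, and the control was mc3T3, an untreated, non-tumorigenic mouse osteoblast line in culture. The labels used here state no ages or sexes, nor whether each tumour came from its own animal. The tumours are mixtures of cells, mc3T3 is a single cultured line, and each of the lone arrays stands for its whole group.

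The median signal of an array lay between 67.1 and 111.1 units, and a signal of 200 was reached by 33.8% to 40.4% of its probe sets. No detection calls were used, so 200 units was set here as a working limit and not measured. A signal below it was taken as one that could not be told from background. The osteoblast markers were present in the osteosarcomas, where bone sialoprotein, Ibsp, had 30210.3 to 49087.2 units. In the tumour labelled rhabdomyosarcoma the defining muscle tumour markers were dim, with Myod1 at 39.4 units, Myog at 65.9 and Des at 88.6. All 3 lay below or within the osteosarcoma range, so the name of that tumour is given here only as its label.

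The tumour labelled rhabdomyosarcoma had the highest signal of all 14 arrays for 8 of the 9 genes, every one except Kit. For Tpsab1, Hdc and Ms4a2 the signal there was still below 200 units and could not be told from background. Over all 18193 genes, 13.6% were higher in that tumour than in each of the 12 osteosarcomas. The granule protease genes Cpa3, Cma1 and Mcpt4 were 3.96, 4.67 and 3.10 times as bright there as in the brightest osteosarcoma, which was osteosarcoma 9 for each. Tpsb2, another granule protease gene, and Fcer1a, the gene of the IgE-binding receptor chain, reached 200 units in that tumour alone. Apart from osteosarcoma 9 for Cpa3, Cma1 and Mcpt4, the osteosarcomas stayed below 200 units for these 5 genes. Kit had another pattern, with 5 of the 12 osteosarcomas at 200 units or more and a dim signal in mc3T3.

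**Figure D1:**
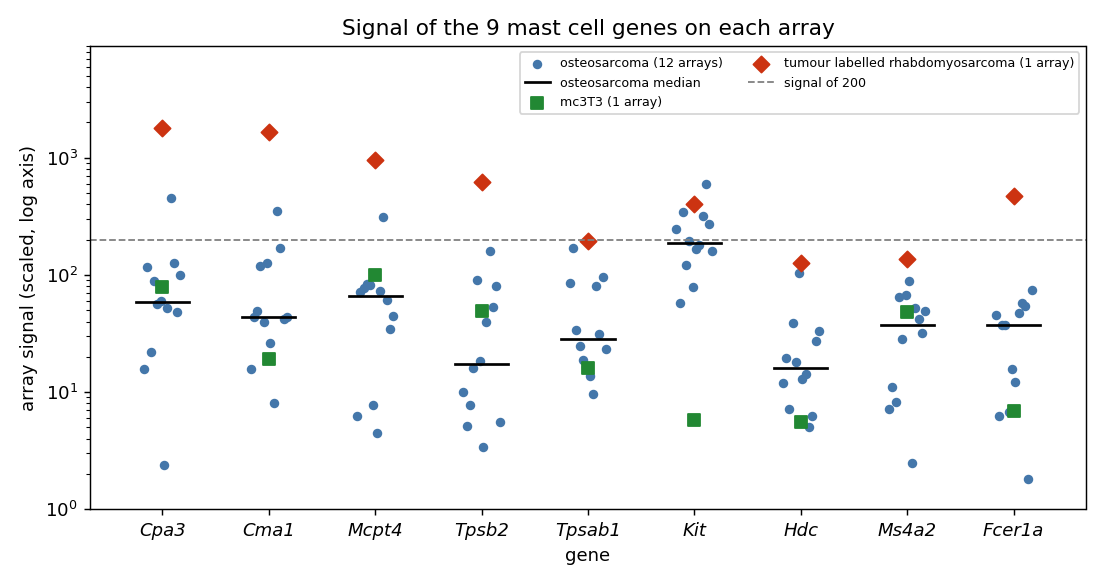
Array signal of the 9 mast cell genes, on a log axis, with a point for each of the 12 osteosarcomas, a bar at their median, a square for mc3T3 and a diamond for the tumour labelled rhabdomyosarcoma. The diamond is the highest point for every gene but Kit, and for Kit the mc3T3 square (5.8 units) lies below all 12 osteosarcomas.

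Cpa3 encodes carboxypeptidase A3, an abundant granule protease of mast cells (probe set 1448730_at). Its signal in the osteosarcomas had a lowest value of 2.4, a median of 58.3 and a highest value of 455.5 units, with 78.2 in mc3T3 and 1803.7 in the tumour labelled rhabdomyosarcoma. Only osteosarcoma 9 reached 200 units among the 12, and the next tumour, osteosarcoma 10, had 125.6. On its array the signal of the tumour labelled rhabdomyosarcoma was at the 90.6th percentile of all probe sets, against a median percentile of 43.1 over the osteosarcomas.

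Cma1 encodes the chymase mast cell protease 5 (probe set 1449456_a_at). It ran from 8.1 through a median of 43.8 to 352.5 units in the osteosarcomas, with 19 in mc3T3 and 1647.5 in the tumour labelled rhabdomyosarcoma. Again osteosarcoma 9 was the brightest of the 12, followed by osteosarcoma 10 (170.9) and osteosarcoma 6 (126.0). Mcpt4, a chymase of connective tissue mast cells (probe set 1425967_a_at), had 4.5, 66.3 and 309.3 units as the lowest, median and highest osteosarcoma. Its signal was 100.4 in mc3T3 and 957.7 in the tumour labelled rhabdomyosarcoma. Of the 12 osteosarcomas, osteosarcoma 9 was the single tumour above mc3T3 for Mcpt4.

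Of the tryptase genes, Tpsb2, which encodes mast cell protease 6 (probe set 1422180_a_at), had 3.4, 17.3 and 160.2 units as the lowest, median and highest osteosarcoma, 49.1 in mc3T3 and 614.8 in the tumour labelled rhabdomyosarcoma. Its brightest osteosarcoma was number 9, as for Cpa3, Cma1 and Mcpt4. Tpsab1, the gene of the related tryptase mast cell protease 7 (probe set 1426175_a_at), had 9.6, 28.1 and 170.2 units in the osteosarcomas, 15.9 in mc3T3 and 195.2 in the tumour labelled rhabdomyosarcoma. The brightest osteosarcoma for Tpsab1 was osteosarcoma 2, and no array reached 200 units, so these values could not be told from background. Tpsb2 and Tpsab1 are close relatives, and cross-hybridisation between their probe sets was not tested.

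The high-affinity IgE receptor has an alpha chain that binds IgE, a beta chain that amplifies the signal and a gamma chain shared with other Fc receptors. Fcer1a, the alpha chain gene (probe set 1421775_at), had 1.8, 37.3 and 74.8 units as the lowest, median and highest osteosarcoma, 6.9 in mc3T3 and 469.3 in the tumour labelled rhabdomyosarcoma. Its brightest osteosarcoma was number 12, with osteosarcoma 9 second at 58.1, so all 12 were dim for it. Ms4a2, the beta chain gene (probe set 1443264_at), had 2.5, 37.0 and 88.8 units in the osteosarcomas, 48.4 in mc3T3 and 135.8 in the tumour labelled rhabdomyosarcoma. Hdc encodes histidine decarboxylase, which makes histamine (probe set 1454713_s_at). It had 5.0, 16.2 and 103.7 units in the osteosarcomas, 5.5 in mc3T3 and 125.4 in the tumour labelled rhabdomyosarcoma. Ms4a2 and Hdc stayed below 200 units on all 14 arrays, and osteosarcoma 9, bright for the proteases, had the lowest Hdc signal of the 12.

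**Figure D2:**
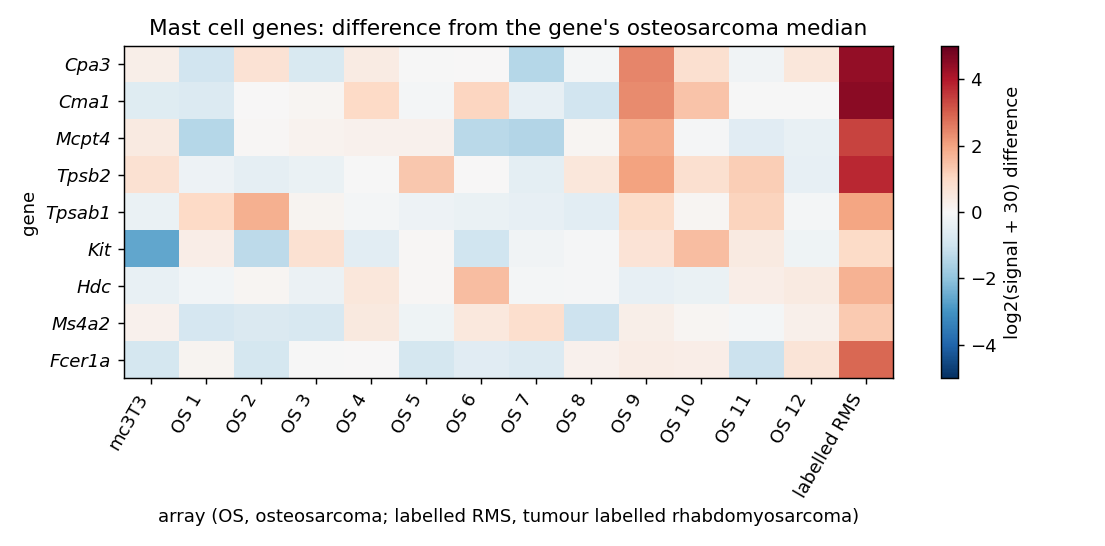
Difference of each array from the gene's osteosarcoma median on the log2(signal + 30) scale, with genes as rows and arrays as columns (red, higher; blue, lower). The column of the tumour labelled rhabdomyosarcoma is red in every row, osteosarcoma 9 is red in the rows of Cpa3, Cma1, Mcpt4 and Tpsb2, and mc3T3 is blue for Kit.

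The promoters of Cpa3, Cma1, Mcpt4 and Fcer1a are shown because their signals were high together in the tumour labelled rhabdomyosarcoma. GATA factors, among them Gata2 of mast cells, bind DNA at GATA letters. The sequences are the 250 bases before the RefSeq start site, on the gene's strand, from build GRCm38.p6, with GATAA or its reverse complement TTATC in capitals. They lie at chr3:20242182-20242431, chr14:55944676-55944925, chr14:56062311-56062560 and chr1:173227230-173227479 in that order, all on the minus strand.
Cpa3: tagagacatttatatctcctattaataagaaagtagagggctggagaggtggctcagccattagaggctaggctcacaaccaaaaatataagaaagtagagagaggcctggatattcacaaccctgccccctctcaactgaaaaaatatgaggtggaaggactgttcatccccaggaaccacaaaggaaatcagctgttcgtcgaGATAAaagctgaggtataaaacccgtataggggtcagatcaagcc
Cma1: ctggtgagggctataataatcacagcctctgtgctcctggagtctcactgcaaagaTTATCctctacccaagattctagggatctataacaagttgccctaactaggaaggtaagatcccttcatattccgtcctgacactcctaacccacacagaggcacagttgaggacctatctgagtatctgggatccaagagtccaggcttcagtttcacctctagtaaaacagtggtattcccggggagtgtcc
Mcpt4: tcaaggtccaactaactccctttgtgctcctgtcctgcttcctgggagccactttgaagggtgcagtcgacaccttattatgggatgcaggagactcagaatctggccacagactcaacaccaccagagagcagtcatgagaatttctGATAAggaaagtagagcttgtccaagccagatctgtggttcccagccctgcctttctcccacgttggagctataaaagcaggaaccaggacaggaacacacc
Fcer1a: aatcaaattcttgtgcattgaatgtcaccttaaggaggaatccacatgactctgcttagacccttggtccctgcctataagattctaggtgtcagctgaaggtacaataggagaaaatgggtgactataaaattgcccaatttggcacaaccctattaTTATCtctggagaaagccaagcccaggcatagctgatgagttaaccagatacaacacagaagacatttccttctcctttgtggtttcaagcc

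Each of these 4 windows held 1 match on either strand, starting 45 bases before the start site in Cpa3, 194 in Cma1, 102 in Mcpt4 and 92 in Fcer1a. The RefSeq promoter table held 7 of the 9 genes. Of these 7, 5 had GATAA on either strand, Ms4a2 being the fifth, while Kit and Hdc had no GATAA on either strand in this window. Only GATAA and TTATC were searched, so GATA letters followed by another base were neither marked nor counted. Of all 32851 promoters in the table, 22.6% had a match in a window of the same length. The E-box letters CANNTG, which read the same on both strands, were in 4 of the 7 (Cpa3, Cma1, Hdc and Fcer1a) and in 66.2% of all promoters, and overlapped 0 of the GATAA matches. A match is a description of the letters, not a site shown to be bound.

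Kit encodes the receptor for stem cell factor, which is needed for mast cell survival and is also found on melanocytes and blood progenitors (probe set 1452514_a_at). Its signal in the osteosarcomas had a lowest value of 58.0, a median of 188.5 and a highest value of 601.9 units. In mc3T3 it was 5.8 units, and in the tumour labelled rhabdomyosarcoma 399.6. All 12 osteosarcomas lay above mc3T3 for Kit, as they did for 17.1% of all 18193 genes, and 5 of them reached 200 units. Osteosarcoma 10 was the brightest and the single tumour above the one labelled rhabdomyosarcoma, followed by osteosarcoma 3 (341.5), osteosarcoma 9 (320.2) and osteosarcoma 11 (272.2). Osteosarcoma 2 (58.0) and osteosarcoma 6 (78.7) had the lowest Kit signals among the tumours.

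The fit over all genes compared the tumour labelled rhabdomyosarcoma with the 12 osteosarcomas, the contrast with the other tumour type that the series title names. Cpa3 was higher by 4.25 ± 0.94 on the log2(signal + 30) scale (SE; limma adjusted p = 0.0226), a scale that understates the change of dim genes. Cma1 was higher by 4.19 ± 0.90 (limma adjusted p = 0.0204) and Mcpt4 by 3.58 ± 0.86 (limma adjusted p = 0.0363). Tpsb2 was higher by 3.43 ± 0.79 (limma adjusted p = 0.0278) and Fcer1a by 3.09 ± 0.57 (limma adjusted p = 0.00827). Kit differed by 0.93 ± 0.74 with a 95% interval of -0.66 to 2.51 and did not pass (limma adjusted p = 0.584).

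Genes were called at an adjusted p below 0.05 with a log2 difference of 1 or more. By this rule 5 genes of the 6 that reached 200 units on an array were called higher and 0 lower. Of all 11815 genes tested, 1.19% were called higher and 1.76% lower. The count is not evidence for the group, because Tpsb2 and Fcer1a reached 200 units only in the tumour labelled rhabdomyosarcoma and had to differ to be tested. The other 3 genes, tested without the filter on dim probe sets, did not pass. Tpsab1 differed by 1.68 ± 0.70 (limma adjusted p = 0.319), Hdc by 1.61 ± 0.53 (limma adjusted p = 0.176) and Ms4a2 by 1.41 ± 0.60 (limma adjusted p = 0.334).

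The test takes the lone array to vary as an osteosarcoma does, and an exact permutation test of 1 array against 12 could not give a one-sided p below 0.0769. With the osteosarcomas whose identifiers start with m alone, as that of the tumour labelled rhabdomyosarcoma does, only Fcer1a was called, and Cpa3, Cma1, Mcpt4 and Tpsb2 had limma adjusted p = 0.0547, 0.0934, 0.0966 and 0.0805, against ranges over 22 alternatives each of 0.00318 to 0.0679, 0.00327 to 0.0934, 0.00684 to 0.0981 and 0.00478 to 0.0912. With the c identifiers alone only Cma1 was called, and Fcer1a had limma adjusted p = 0.0530 (range over 21 alternatives 0.000865 to 0.053). Without osteosarcoma 10 or without osteosarcoma 12, Mcpt4 missed the threshold (limma adjusted p = 0.0507 and 0.0514).

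**Figure D3:**
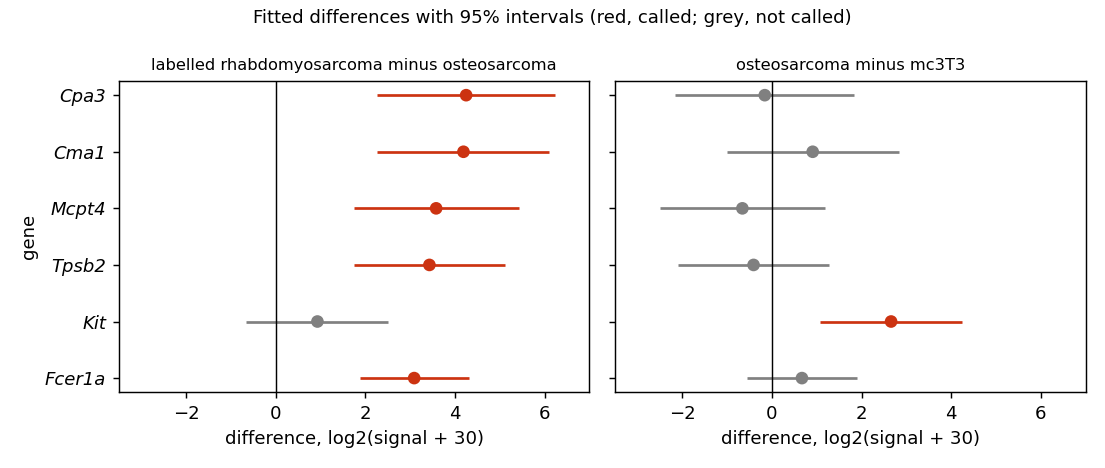
Fitted differences on the log2(signal + 30) scale, with 95% intervals as lines, for the 6 genes that reached 200 units on an array. Left, tumour labelled rhabdomyosarcoma minus osteosarcoma, where every gene but Kit was called (red); right, osteosarcoma minus mc3T3, where Kit alone was called.

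The osteosarcomas were next compared with mc3T3, the control named by the design. Kit was higher by 2.66 ± 0.74 on the log2(signal + 30) scale (limma adjusted p = 0.0279). No other gene of the 6 tested passed. Cpa3 differed by -0.16 ± 0.94, Cma1 by 0.91 ± 0.90, Mcpt4 by -0.66 ± 0.86, Tpsb2 by -0.41 ± 0.79 and Fcer1a by 0.67 ± 0.57, with limma adjusted p-values from 0.482 to 0.933. Called higher was 1 of the 6 genes and called lower 0, against 8.59% and 4.58% of the 11815 genes. With a pseudocount of 100 in place of 30, Kit differed by 1.52 and did not pass (limma adjusted p = 0.0888). With the osteosarcomas whose identifiers start with c alone it differed by 2.44 and did not pass either (limma adjusted p = 0.126). Over 22 alternatives the difference ran from 1.52 to 3.68, the latter with a pseudocount of 10, and the limma adjusted p from 0.00859 to 0.126. In a bulk tumour, more or fewer cells of a type cannot be told apart from more or less RNA per cell.

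Of the 9 genes, 4 had a second, dimmer probe set. All of these stayed below 200 units on every array, so their values could not be told from background. The second probe set of Kit had its brightest osteosarcoma in number 10 (156.2 units), with 16.4 in mc3T3 and 166.9 in the tumour labelled rhabdomyosarcoma. Over the 12 osteosarcomas it correlated with the first at only r = 0.21. The second probe set of Hdc had 91.1 units in the tumour labelled rhabdomyosarcoma against 4.9 to 34.8 in the osteosarcomas. Those of Tpsb2 (28.8 units) and Ms4a2 (19 units) were dim in that tumour and lay within the osteosarcoma range, so they did not show the higher signal of the brightest probe set.

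Among the osteosarcomas the spread of a gene was 1.01 (SD, log2 scale, n = 12) for Cpa3, 0.97 for Cma1, 0.92 for Mcpt4 and 0.84 for Tpsb2. It was 0.78 for Kit, 0.74 for Tpsab1, 0.62 for Ms4a2, 0.59 for Fcer1a and 0.54 for Hdc. The Hdc value was 0.32 without osteosarcoma 6. The size and order of these SDs depended on the pseudocount, with Cpa3 running from 0.63 to 1.33, Kit from 0.59 to 0.87 and Hdc from 0.26 to 0.82 over 15 alternatives. Cpa3 and Cma1 followed each other with Pearson r = 0.77 and Spearman rho = 0.73 over the 12 tumours, and with r = 0.54 without osteosarcomas 9 and 7, the ones farthest from the Cpa3 median. Cpa3 and Mcpt4 had r = 0.79 and rho = 0.52, falling to r = 0.39 without the same tumours. Kit went with neither, at r = 0.09 with Cpa3 and 0.23 with Cma1. Over all 36 pairs of the 9 genes r ran from -0.66 (Kit with Hdc) to 0.79 with a median of 0.14. These correlations describe tumours that were mostly dim for these genes, and no p is given for them.

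The mean log2(signal + 30) of the 9 genes ordered the arrays from 9.0 in the tumour labelled rhabdomyosarcoma through 7.41 in osteosarcoma 9 and 6.76 in osteosarcoma 10 to 5.75 in osteosarcoma 7. The other 9 osteosarcomas lay between 5.93 and 6.47, close to the 5.89 of mc3T3, and whether they differ from each other was not tested. Their summed signal was 6349.0 units in the tumour labelled rhabdomyosarcoma, 1793.7 in osteosarcoma 9, 1147.1 in osteosarcoma 10 and 329.2 in mc3T3.

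The genes other than the 9 whose pattern over the 12 osteosarcomas was most like the mean of the 6 tested genes were taken from 4373 genes with an SD of at least 0.5. Of the 6 genes in that mean, Tpsb2 and Fcer1a were below 200 units in every osteosarcoma, and outside osteosarcomas 9 and 10 only Kit reached 200, so the mean rests largely on signals that could not be told from background. The most similar genes were Col15a1 (r = 0.78), Gpat2 (0.77), Nfkbid (0.77), Col12a1 (0.77), Col18a1 (0.75), Zfp939 (0.75), Krt18 (0.74) and Gbp8 (0.74). Col15a1 and Col18a1 encode basement membrane collagens. Col15a1 ran from 238.1 to 1268.4 units with its highest value in osteosarcoma 9. Without osteosarcomas 9 and 10, r was 0.72 for Col15a1, 0.81 for Col18a1, 0.27 for Col12a1 and 0.35 for Krt18. The listed genes were picked for the highest r among 4373 genes over only 12 tumours. Such a search returns high r even among unrelated genes, and how high was not tested. The r values therefore do not show that these genes follow the mast cell genes. The values without osteosarcomas 9 and 10 came from the same selected genes and tumours and are no separate check. In the tumour labelled rhabdomyosarcoma Col18a1 had 4834.3 units against at most 2090.4 in the osteosarcomas, but Col15a1 had 604.1, near the osteosarcoma median of 613.3.

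Other genes of mast cell granules, receptors and mediators were examined as a list of 27, of which 21 had a named probe set and 12 were tested. Against the osteosarcomas, 1 of the 12 was called higher in the tumour labelled rhabdomyosarcoma and 0 lower, where 1.19% and 1.76% of all genes tested were. The median difference of the list was 1.41, beside 0.05 over all genes tested. The called gene was Mcpt2, a chymase of mucosal mast cells, with 299.7 units against 7.5 to 91.2 in the osteosarcomas (2.65; limma adjusted p = 0.0256). Like Tpsb2 and Fcer1a, it reached 200 units in that tumour alone and had to differ to be tested. It was not called with a pseudocount of 10, with an intensity trend or with the m identifiers alone, and with a minimum signal of 500 it was not tested. Without osteosarcoma 1, 2 genes of the list were called higher, and without osteosarcoma 4, 1 was called higher and 1 lower. Against mc3T3, 3 of the 12 rose in the osteosarcomas and 0 fell, where 8.59% and 4.58% of all genes tested did (median 1.18, beside -0.02 over all genes). These were Srgn (5.13 ± 0.59; limma adjusted p = 4.55e-05), the gene of serglycin, Ltc4s (2.79 ± 0.69; limma adjusted p = 0.0147), which makes leukotriene C4, and Ext1 (1.20 ± 0.35; limma adjusted p = 0.0359), an enzyme of heparan sulfate chains. All 3 are also used by other cells. The osteosarcomas with c identifiers alone gave 1 called gene of this list against mc3T3.

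Of 14 genes of Fc epsilon receptor signalling, 13 were tested, and 11 of them rose in the osteosarcomas against mc3T3 while 0 fell (median 2.64), beside 8.59% and 4.58% of all genes tested. Fcer1g, the shared gamma chain, had 7030.3 to 16053.3 units in the osteosarcomas and 52.4 in mc3T3 (7.12 ± 0.36; limma adjusted p = 1.85e-08). Plcg2 (3.66 ± 0.40; limma adjusted p = 3.11e-05) and Lcp2 (4.36 ± 0.49; limma adjusted p = 4.17e-05), a phospholipase and an adaptor of this cascade, and the kinase Btk (3.82 ± 0.45; limma adjusted p = 5.40e-05) rose too. These genes are expressed in macrophages and other blood cells as well, and the macrophage marker sum was 39648.3 to 84336.5 units in the osteosarcomas against 605.7 in mc3T3, with its part in the result not tested. Against the osteosarcomas, 0 of the 13 were called by limma in the tumour labelled rhabdomyosarcoma, with 0 at an unadjusted p under 0.05 (median 0.11), where Fcer1g had 9821.8 units. That value of the gamma chain lay within the osteosarcoma range, whereas the alpha chain gene Fcer1a lay above it. The c identifiers alone gave 7 called genes against mc3T3.

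Of 17 genes of mast cell growth and identity, 13 were tested, and 5 rose in the osteosarcomas against mc3T3 with 0 falling (median 1.16), beside 8.59% and 4.58% of all genes tested. Csf2rb (4.25 ± 0.50; limma adjusted p = 6.09e-05), a cytokine receptor chain, the blood cell factor Lmo2 (2.59 ± 0.52; limma adjusted p = 0.00408), Csf2rb2 (2.18 ± 0.54; limma adjusted p = 0.0148) and the transcription factor Mitf (1.79 ± 0.48; limma adjusted p = 0.0229) were among them. The c identifiers alone gave 1. In the tumour labelled rhabdomyosarcoma 0 of the 13 were called by limma, with 2 at an unadjusted p under 0.05 (median 0.14). Kitl, the ligand of Kit, and Gata2 were singled out after their values had been seen. Kitl had 566.0 to 5356.8 units in the osteosarcomas, 4620.1 in mc3T3 and 4063.4 in the tumour labelled rhabdomyosarcoma, and passed in neither comparison. Gata2 had 170.0 to 449.4 units in the osteosarcomas, 547.1 in mc3T3 and 465.7 in the tumour labelled rhabdomyosarcoma, and passed in neither either.

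Cma1 and Mcpt4 lie in a cluster of serine protease genes, which was looked at after the values had been seen. In RefSeq order Cma1 is followed by Cma2, Mcpt1, Mcpt2, Mcpt9, Mcpt4, Mcpt8 and Ctsg, and then by granzyme genes that end with Gzmb. In the tumour labelled rhabdomyosarcoma Cma1, Mcpt2 and Mcpt4 were above all 12 osteosarcomas, as was the granzyme gene Gzmn at a dim 53.8 units against at most 42.5. Cma2 and Mcpt9 had no named probe set here. Mcpt1 (19.9 units), Mcpt8 (19.3), a basophil protease, and Ctsg (11.7), a neutrophil and mast cell protease, were dim there. Gzmb, a granzyme of cytotoxic cells, had 421.0 units, within the osteosarcoma range of 4.5 to 746.2, whose highest value was in osteosarcoma 4.

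**Figure D4:**
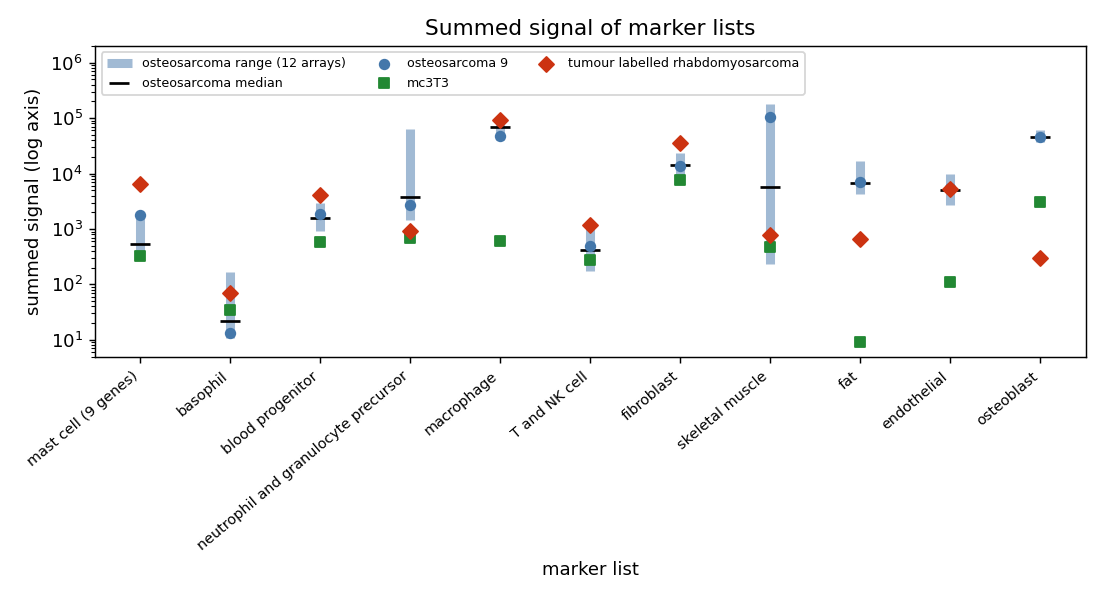
Summed signal of marker lists on a log axis, with the range of the 12 osteosarcomas as a band, their median as a bar, osteosarcoma 9 as a circle, mc3T3 as a square and the tumour labelled rhabdomyosarcoma as a diamond. The diamond lies above the osteosarcoma band for the 9 mast cell genes and the fibroblast, macrophage, blood progenitor and T and NK cell lists, and, of the lists plotted, below it for the fat, osteoblast and neutrophil lists.

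Markers of cells that share these genes were set beside them. The basophil sum (2 of 3 markers named) was 69.8 units in the tumour labelled rhabdomyosarcoma, 10.7 to 165.2 in the osteosarcomas and 34.2 in mc3T3, with Mcpt8 and Cd200r3 both below 200 everywhere. The melanocyte sum, over 6 of 6 markers, was 191.3 units there, 159.6 to 429.6 in the osteosarcomas and 400.8 in mc3T3, and 0 of its markers reached 200 in any of them. The eosinophil sum was 73.2 units against 63.5 to 358.0 and 98.1. None of these 3 lists stood above the osteosarcoma range in that tumour.

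Other lists were higher in the tumour labelled rhabdomyosarcoma, a single array, than in any osteosarcoma. The fibroblast sum there was 34811.3 units, above the osteosarcoma range of 9029.6 to 23589.3 and the 7672.2 of mc3T3, with 4 of 4 markers at 200 or more. The macrophage sum was 93696.5 against 39648.3 to 84336.5 and 605.7, with 6 of 6 markers at 200 or more. Its markers did not all go the same way, since C1qa, C1qb, Adgre1 and Cd14 lay above the osteosarcoma range, Csf1r (32257.8) within it and Cd68 (5514.8) below its lowest value of 7551.4. The blood progenitor sum (3 of 5 markers named) was 4157.3 against 914.5 to 2924.9 and 589.5, of which Cd34 made 3999.1, while Flt3 and Myb were below 200 there. The T and NK cell sum was 1156.5 against 177.7 to 1040.9 and 274.2, with 2 of 6 markers at 200 or more. These were Nkg7 (538.4) and Cd3g (205.6), which lay above the osteosarcoma range. Cd3e, Cd8a, Cd4 and Gzma lay within it. The part of these cells in the result was not tested.

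In osteosarcoma 9, the brightest osteosarcoma for Cpa3, Cma1, Mcpt4 and Tpsb2, the skeletal muscle sum was 103678.0 units, the second highest of a range from 231.8 to 177606.7. The highest, in osteosarcoma 6, came with 59.8 units of Cpa3 and 7.7 of Mcpt4, but with 126.0 of Cma1, the third highest of the 12, and 103.7 of Hdc, the highest, and the tumour labelled rhabdomyosarcoma had a muscle sum of 788.1. Osteosarcoma 9 ranked 7th of the 12 for the fibroblast sum, 10th for macrophages, 5th for endothelial cells and 6th for fat. Osteosarcoma 10 had the highest sums of the 12 for endothelial cells (9692.3 units), T and NK cells (1040.9) and blood progenitors (2924.9). Its macrophage (49945.8) and fibroblast (10970.7) sums lay below the osteosarcoma medians of 69199.9 and 14036.1. In osteosarcoma 6, second to the tumour labelled rhabdomyosarcoma for Hdc, the sum of neutrophil and granulocyte precursor markers was the highest, 63190.4 units against a median of 3851.4. The Cpa3, Mcpt4, Cma1 and Hdc signals given for osteosarcoma 6 were all below 200 units and could not be told from background. The keratinocyte sum was lowest of the 12 in osteosarcoma 9 (210.0 units) and 536.7 in the tumour labelled rhabdomyosarcoma, within the osteosarcoma range up to 1449.7.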

How the data were processed

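Signals of 45101 probe sets on 14 arrays came from the deposited table. The authors deposited linear array signal (intensity). The submitters' processing notes name GCOS without a version, and the background step is not given in the sources used here. The values show arrays scaled to a trimmed mean of 500.0. Arrays were rescaled to that mean, and log2(signal + 30) was fitted in R 4.3.3 with limma 3.58.1 (3 groups, two-sided, Benjamini-Hochberg over 11815 genes reaching 200 on at least 1 array, each by its brightest tested probe set). The fit was also run on simulated data. The lone arrays varied there as the osteosarcomas do, so that assumption of the fit was not checked. Gene symbols were taken from the array's annotation and brought up to date by Entrez identifier for 34741 probe sets; 34945 had 1 symbol, 932 several genes and 9160 none.

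Groups follow the titles, since the description names mc3T3 for every sample. If the osteosarcomas share animals, p-values measure only the spread between these samples. The number of arrays limits the precision. No 2 arrays were identical (highest r = 0.954).

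The 9 genes, the lists and the tests were chosen with earlier results of these data known. Named were the 9 genes, up to 4 called genes per list and direction, marker lists by their sums and the 8 most similar genes. Promoters were from RefSeq (GRCm38.p6). The gene table was used otherwise only for gene names and order. Alternatives covered pseudocount, filter, scaling, probe set choice, moderation of the spread and the osteosarcomas included. The change of probe set choice averaged only tested probe sets. It could not alter the differences of the mast cell genes, whose second probe sets were below 200 units on every array.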

Additional observations from a re-analysis of the deposited data

How the results depend on the processing

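Each of the 6 tested genes was refitted under 22 alternatives (21 for Fcer1a, which does not reach a minimum signal of 500). Averaging the tested probe sets of a gene left their differences unchanged, because no second probe set of these genes reached 200 units. Of osteosarcoma against mc3T3, 1 of 6 genes was called, and 0 with a pseudocount of 100 and with the c identifiers alone, which called 568 genes in all against 1556. Of the tumour labelled rhabdomyosarcoma against osteosarcoma, 5 of 6 were called, 2 with a pseudocount of 10, 1 with the m identifiers alone, which called 328 genes in all against 349, and 1 with the c identifiers alone, which called 105. The settings with m or c identifiers alone used fewer than the 12 osteosarcomas, and the part of this smaller number was not tested. The cause of the other changes was not tested either. The one change of sign was Cpa3 against mc3T3, 0.33 with the m identifiers alone against -0.16, in both cases not called. The differences of Cpa3, Cma1, Mcpt4, Tpsb2 and Fcer1a between the tumour labelled rhabdomyosarcoma and the osteosarcomas ran from 2.12 for Fcer1a to 4.84 for Cpa3 over the alternatives. Their positive sign is no further support, because every alternative used the same single array of that tumour. That array lay above all 12 osteosarcomas for these genes. No paired analysis was possible because the labels give no replicate numbers and the other groups hold 1 array each. Dim signals limit Tpsab1, Hdc and Ms4a2, which did not reach 200 units on any array.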
